A study of Solanum virginianum with 2 samples.

Results

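The miR171 family and the GRAS transcripts that it points to were examined in eggplant pistils, through 1 library of small RNAs and 1 library of RNA 5′ ends (degradome). Family members were taken by name: every small RNA whose name holds miR170 or miR171, in either case, was included. This gave 20 of the 686 listed small RNA sequences and 56 of the 18764 listed pairings of a small RNA with a predicted target transcript. The 56 pairs reached 29 transcripts, of which 2 were GRAS transcripts by symbol, SCL6 and SCL15. Both libraries came from the long purple eggplant line 'B3-3', grown in the field, whose plants carry short-styled (S-morph) and long-styled (L-morph) flowers side by side. Pistils of both morphs were pooled in each library, which leaves no comparison between morphs, and the labels give no replicate of either library. The sample labels place the tissue at days 1 to 3 and 3 to 6 after budding. The extraction protocol in the labels instead names 6 samples for the degradome, from phases 1, 2 and 5, the last being days 13 to 15. The series title names Solanum melongena, while the organism label reads Solanum virginianum.

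miR171 is a plant miRNA family whose mature strand pairs along nearly its whole length with the mRNAs of SCL6-type GRAS transcription factors and guides their cleavage. The genes are also called HAIRY MERISTEM, after a petunia mutant whose shoot meristem is lost to differentiation. In Arabidopsis they keep meristem cells undifferentiated together with the homeodomain protein WUSCHEL, and they restrain chlorophyll synthesis. GRAS proteins are named after GAI and RGA, the gibberellin-regulated DELLA repressors, and SCARECROW, a root patterning factor. A degradome library is made from RNA that has a poly(A) tail but no 5′ cap, so a cleaved target leaves reads that begin at the cut.

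The sequences below carry the result, since they show how members of the family start at different bases of a shared run. They are printed 5′ to 3′ as deposited, with the seed (bases 2 to 8) in capitals. Prefixes name the plant whose known miRNA is nearest, such as sly for tomato, ptc for poplar and mdm for apple. Codes such as R+1 mark an added 3′ base, and ss marks substituted bases. The first group has the frame of sly-miR171a, the second the frame of sly-miR171b, mdm-miR171i follows alone, and the last 3 are of the opposite strand type.
sly-miR171a: uGAUUGAGccgugccaauauc
vvi-miR171a_R+2: uGAUUGAGccgugccaauauccu
sly-miR171b: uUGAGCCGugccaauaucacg
ptc-miR171a-3p_2ss9TC19AC: uUGAGCCGcgccaauaucccg
sly-miR171d_R+1: uUGAGCCGcgccaauaucacu
tcc-MIR171a-p3_1ss21GT: uUGAGCCGcgccaauaucuuu
mdm-miR171i: uGAGCCGAaccaauaucacuc
sly-MIR171a-p5: uAUUGGCCugguucacucaga
sly-miR171c: uAUUGGUGcgguucaaugaga
sly-MIR171b-p5: aUAUUGGUgcgguucaauuag

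The family divided cleanly by sequence. A run of 6 bases, GAGCCG, occurred in 12 of the 20 sequences, which are called 3′-type here, and another, GGUUCA, in the other 8, called 5′-type. All 12 names that state an arm of the hairpin had the matching type. Names follow the nearest known miRNA, so this match is not independent of the sequence. No hairpin was folded here, so the types rest on sequence and names. The run GAGCCG occurred in 0 of the other listed sequences and GGUUCA in 2 of them.

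Within the 3′-type, sly-miR171a and sly-miR171b shared a run of 18 bases (uugagccgugccaauauc) that starts 3 nt later in sly-miR171a. Seed GAUUGAG was shared by 4 names, here called frame a, and seed UGAGCCG by 7 names, called frame b. mdm-miR171i had the seed GAGCCGA, which begins 1 nt further along than frame b and differs from both frames in its last base.

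The question for the small RNA library was which members of the family the pistils held, and in what amounts. The family had 2074 of the 135737 listed reads, a share of 1.53% (exact Clopper-Pearson 95% interval 1.46 to 1.60%). All intervals given here are of this kind. They cover at most counting error and treat reads or pairs as independent. PCR copies of 1 molecule are counted as separate reads, and pairs can share a position, so the intervals can be too narrow. The total is that of a list of named sequences and not of the whole library. In pooled tissue, fewer cells holding a miRNA and less of it per cell cannot be told apart.

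Reads were concentrated in a few members. The tomato hairpin strand sly-MIR171a-p5 had 987 reads, sly-miR171a had 525 and sly-miR171c had 205, together 82.8% of the family (81.1 to 84.4%). The poplar variant ptc-miR171a-3p_2ss9TC19AC and sly-MIR171b-p5 had 95 reads each. Next came aly-MIR170-p5 with 45 reads, sly-miR171b with 37, sly-miR171d_R+1 with 23 and ptc-MIR171e-p3 with 12. The remaining 11 sequences had from 1 to 8 reads and 50 together, and 4 of them had 1 read.

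**Figure D1:**
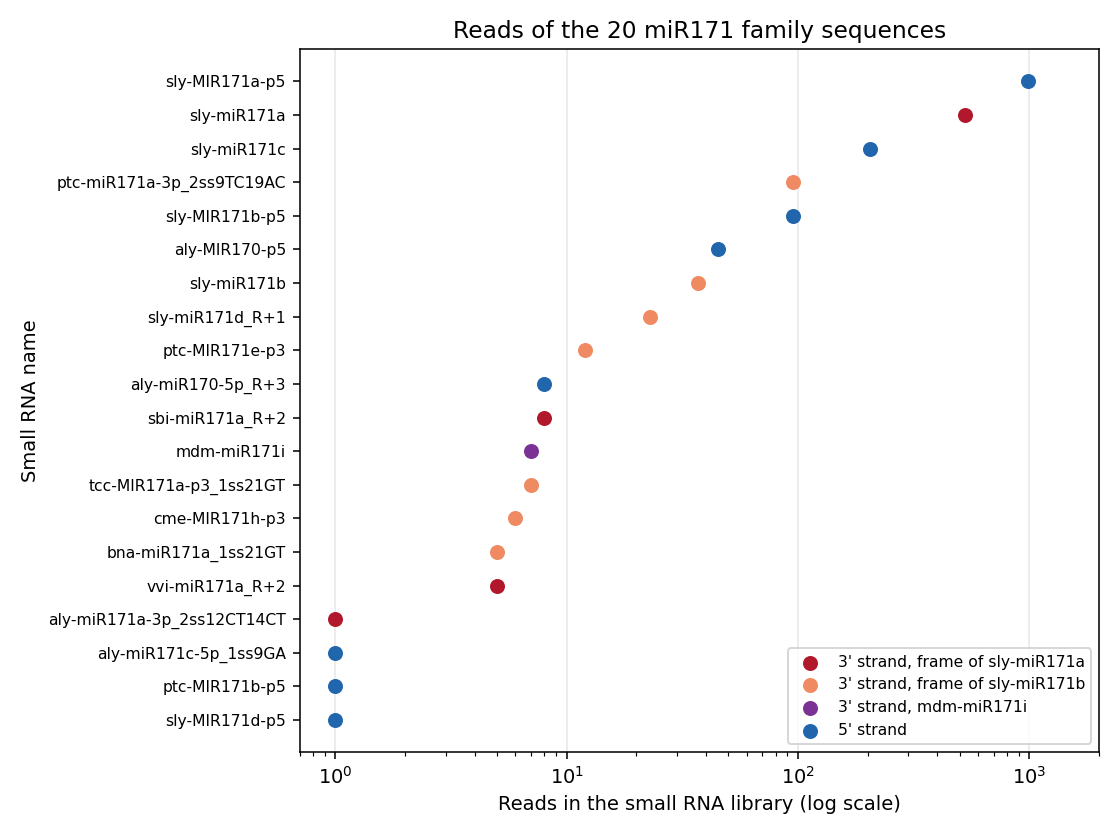
Reads of each of the 20 family members in the small RNA library, on a log scale, with 1 point per sequence coloured by strand type and frame. The 5′-type strand sly-MIR171a-p5 stands first with 987 reads, ahead of the 3′-type sly-miR171a with 525.

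The 5′-type strands were in the majority. They held 1343 reads, 64.8% of the family (62.7 to 66.8%), against 731 reads for the 3′-type strands, which carry the known target-pairing sequence. sly-MIR171a-p5 and sly-miR171a are opposite strands of one hairpin by their names. Laid against each other with 3′ overhangs of 2 nt, as Dicer products have, they paired at 17 of 19 opposed positions, counting G-U pairs. No other overhang from -6 to 8 nt gave more paired bases for these strands. Pairing of this extent was common in the family, since 65 of 96 combinations of a 5′-type and a 3′-type strand had 17 or more paired bases at their best overhang, and 18 of these were best at 2 nt. Names and pairing also parted: sly-MIR171b-p5 had 20 paired bases with sly-miR171a, at overhangs of 1 nt, and 17 with its namesake sly-miR171b, at overhangs of 4 nt. The 5′-type strand had 1.88 times the reads of the other, or 65.3% of their joint 1512 reads (62.8 to 67.7%). sly-miR171c, which has no arm in its name, also paired best with sly-miR171a at 2 nt overhangs, at 18 of 19 positions. In Arabidopsis, the strand opposite miR171a is known to enter Argonaute complexes and to act on a target of its own. Whether that holds in these pistils was not tested.

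Among the 3′-type strands, frame a led. It held 539 of 731 reads (73.7%, 70.4 to 76.9%), nearly all of them sly-miR171a, and frame b held 185 reads (25.3%, 22.2 to 28.6%). mdm-miR171i had the last 7. Frame b was spread over its 7 names, from 95 reads for the poplar variant to 5 for bna-miR171a_1ss21GT.

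Lengths were narrow. The 21 nt class held 16 of the 20 sequences and 98.9% of the family's reads (98.4 to 99.3%), beside 36.8% of all listed reads. A further 3 sequences were 23 nt long and 1 was 24 nt long. The longer frame a strands, sbi-miR171a_R+2 with 8 reads and vvi-miR171a_R+2 with 5, were sly-miR171a with 2 added 3′ bases, and made up 2.41% of the frame a reads (1.29 to 4.09%). All 12 strands of the 3′-type began with U, the base that the main miRNA Argonaute of plants prefers, and so did 93.1% of the family's reads, beside 79.0% of all listed reads.

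Frame b strands differed from one another at few positions, which are counted from 1 at the 5′ end and written against sly-miR171b. The poplar variant ptc-miR171a-3p_2ss9TC19AC carried U9C and A19C, and sly-miR171d_R+1 carried U9C and G21U. The cacao-named tcc-MIR171a-p3_1ss21GT carried U9C, A19U, C20U and G21U. U9C was present in 4 of the 7 names, with 131 of the 185 frame b reads (70.8%, 63.7 to 77.2%).

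The degradome addressed which transcripts were cut at the predicted sites. Of the 56 predicted miR171 pairs 21 were detected (37.5%, 24.9 to 51.4%), and over all small RNAs 5.38% of pairs were. The 21 pairs came from 11 small RNAs and fell on 5 positions of 4 transcripts: SCL6, SCL15 and a pair of riboflavin kinase entries. Several names point to the same position and share its reads, so pairs are not independent. In category 0, which by convention means the strongest signal on the transcript, there were 4 of the 56 pairs (7.14%), where 0.634% of all pairs were. An authors' p of at most 0.05 in the authors' deposited table was given to the same number, 4 of 56, where 0.661% of all pairs had one.

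SCL6 (Sme2.5_05903.1_g00003.1) carried the signal. Its symbol is that of a HAIRY MERISTEM type gene, and its deposited terms include the nucleus, regulation of transcription and cell division. At nucleotide 1085 of the transcript it had 86 raw reads, and at nucleotide 1082 it had 25. The higher position ranked 4 of the 825 detected positions in the table by raw reads, and 2 of the 40 detected positions of category 0. The lower position ranked 21 of 825. The median detected position had 1 raw read, and the median position of category 0 had 14. At both SCL6 positions the normalized reads equalled the raw reads, so on the reading given under processing these reads matched 1 place. SCL6 held 111 of the 120 raw reads at miR171 positions (92.5%, 86.2 to 96.5%).

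Each SCL6 position belonged to 1 frame. All 4 frame a names aligned up to nucleotide 1094 of SCL6 and were listed with the cut at 1085. All 7 frame b names aligned from 1071 to 1091 and were listed with the cut at 1082. In each of the 21 detected miR171 pairs the listed cut was 9 nt upstream of the last aligned nucleotide, opposite base 10 of the small RNA. Cuts are thus listed at a fixed place in each alignment, so the 3 nt step between them follows from the 3 nt step between the frames. The reads add that 5′ ends were present at both places. Over all small RNAs, 43 of 666 detected transcripts had positions 1 to 5 nt apart, and 15 had positions exactly 3 nt apart.

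The frames also stood in a like ratio in both libraries. Frame a had 2.91 times the small RNA reads of frame b, and the frame a position of SCL6 had 3.44 times the degradome reads of the frame b position. As shares, frame a made up 74.4% of frame a and b small RNA reads (71.1 to 77.6%). Its position held 77.5% of the SCL6 degradome reads (68.6 to 84.9%). The intervals overlap, which does not show that the shares are equal, and a link between them was not tested. With 1 transcript and 1 library of each kind this is a description of these reads, and the degradome may hold later stages than the small RNA library.

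**Figure D2:**
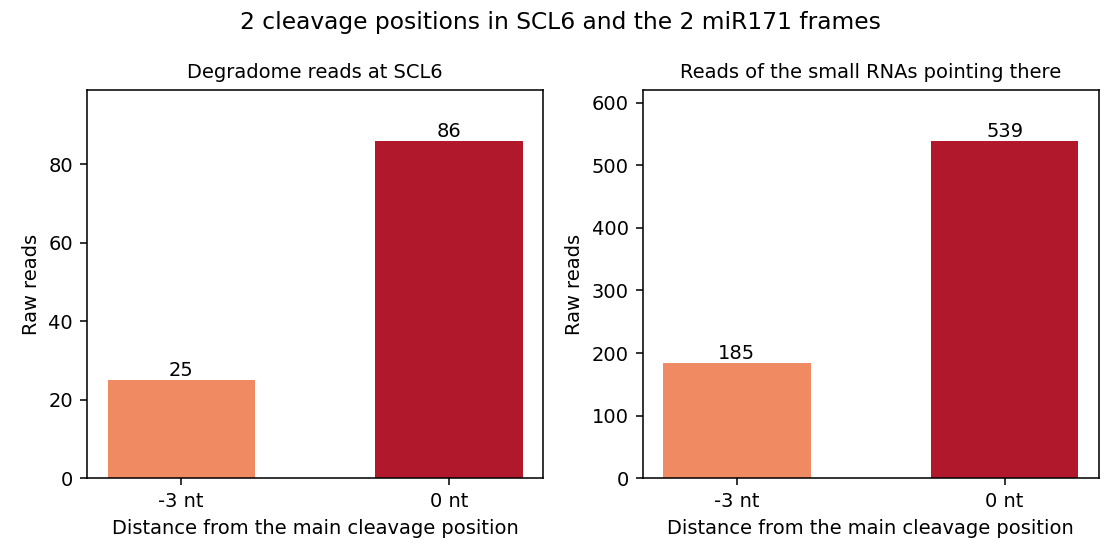
Raw degradome reads at the 2 detected SCL6 positions (left) and summed reads of the miR171 names that point to each (right), by distance in nt from the main position. The main position has 86 degradome reads, and the names that point to it have 539 small RNA reads. For the position 3 nt upstream these are 25 and 185.

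The authors' category and p differed between the SCL6 positions. Both lie on 1 transcript, so with 86 raw reads against 25 the lower position could not be in category 0. In the authors' deposited table the 4 frame a pairs were in category 0, with a p from 0.00167 for sbi-miR171a_R+2 to 0.00482 for sly-miR171a. The 7 frame b pairs were in category 2 in the authors' deposited table, which by convention means below the transcript's maximum, with a p from 0.0795 to 0.204. In the authors' deposited table a closer match did not bring a lower p. Among the frame a names the p fell as the match loosened, on SCL6 and on SCL15. On SCL6, sly-miR171a had an alignment score of 1 and sbi-miR171a_R+2 a score of 3, where lower is closer, yet the latter had the lower p. The frame b pairs on SCL6 were not so ordered, with an authors' p of 0.126 at a score of 1, 0.204 at 2 and 0.0795 at 3.5.

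SCL15 (Sme2.5_00099.1_g00002.1), the other GRAS transcript, had a close match and almost no reads. The symbol is that of an Arabidopsis HAIRY MERISTEM type gene, and the deposited terms include cell differentiation. It had 1 raw read, at nucleotide 629, the cut of the 4 frame a names. In the authors' deposited table this read was in category 4, the class of single reads, with a p from 0.150 to 0.345. The 4 frame b names predicted on SCL15 would cut opposite base 10 at nucleotide 626, and 0 of these 4 pairs were detected. sly-miR171a had an alignment score of 1 on SCL15 and on SCL6 alike, yet SCL6 had 86 raw reads and SCL15 had 1. Transcript levels were not analysed here, so cutting and abundance cannot be told apart in this difference.

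Alignment scores on the GRAS transcripts varied among frame b names. Of the frame b names with U9C, sly-miR171d_R+1 and tcc-MIR171a-p3_1ss21GT scored 1 on SCL6. The poplar variant and cme-MIR171h-p3 scored 3 there. Of these 4 names only sly-miR171d_R+1 was predicted on SCL15, with a score of 4. The 3 names that keep U at position 9 scored 1.5 (sly-miR171b and ptc-MIR171e-p3) or 2 (bna-miR171a_1ss21GT) on SCL15. On SCL6 they scored 3, 3.5 and 2. Of the names scored on both transcripts, sly-miR171d_R+1 matched SCL6 more closely, sly-miR171b and ptc-MIR171e-p3 matched SCL15 more closely, and bna-miR171a_1ss21GT matched both equally. The target sequences were not used here, so the bases opposite position 9 are not shown.

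NSP2 (Sme2.5_14424.1_g00001.1) was the closest match of the family and was not detected. NSP2 is a GRAS factor of nodulation and symbiosis signalling in legumes, and in Medicago it is a known target of miR171h. It fell outside the GRAS rule because neither its symbol nor an annotation holds SCL or GRAS. mdm-miR171i (7 reads) had an alignment score of 0 on nucleotides 392 to 412. The frame b names bna-miR171a_1ss21GT and sly-miR171d_R+1 scored 3, and sly-miR171b scored 4, on nucleotides 393 to 413. None of the 4 pairs was detected (interval up to 60.2%). Over all small RNAs 17 of the 119 pairs with a score of 0 were detected (14.3%, 8.55 to 21.9%), so most pairs with that score were undetected.

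The remaining detected transcripts had few reads. RFK (Sme2.5_02720.1_g00001.1), annotated as riboflavin kinase, an enzyme that makes flavin mononucleotide, had 4 raw reads at nucleotide 241. The entry Sme2.5_11726.1_g00002.1 has the same annotation, but its symbol, pol, and its deposited terms are those of a retroelement polyprotein. It had 4 raw reads at nucleotide 508. Each had 2 normalized reads. If normalized reads are raw reads divided over matching places, these reads also matched elsewhere and may be the same reads listed on both entries, which was not tested. The pairs came from the poplar variant, sly-miR171d_R+1 and tcc-MIR171a-p3_1ss21GT, all of frame b with U9C. Each had an alignment score of 4, the loosest in the table. The authors' deposited table placed them in category 2, with a p of 0.135 or 0.195.

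**Figure D3:**
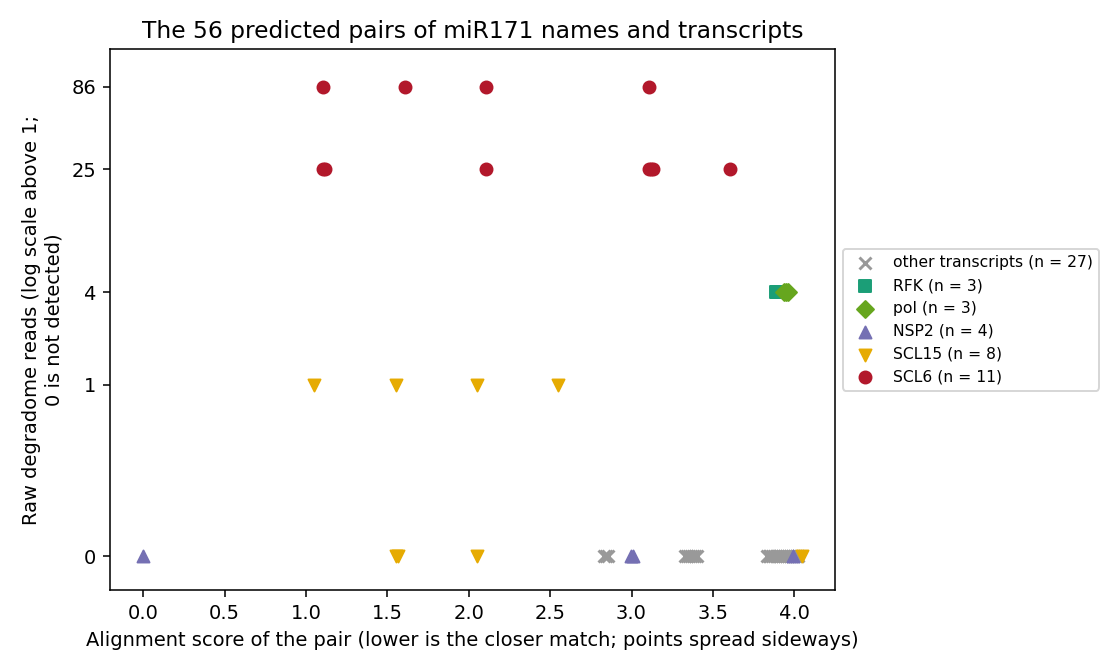
Alignment score (horizontal, lower is closer) and raw degradome reads (vertical, log scale above 1, with undetected pairs at 0) of the 56 predicted pairs, by transcript; equal points overlap. SCL6 pairs lie at 86 or 25 reads over scores from 1 to 3.5, SCL15 pairs at 1 read or undetected, and the NSP2 pair with a score of 0 is undetected.

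By transcript, detection ran from every pair to none. All 11 SCL6 pairs were detected, over scores from 1 to 3.5, and 4 of 8 SCL15 pairs were. Together 15 of 19 GRAS pairs were detected (78.9%, 54.4 to 93.9%), against 6 of 37 pairs on other transcripts (16.2%, 6.19 to 32.0%), and 5.38% of pairs over all small RNAs. With NSP2 counted as GRAS, a choice made after seeing the data, the figures were 15 of 23 (65.2%) and 6 of 33 (18.2%). Pairs share positions and reads, so these intervals, which treat pairs as independent, are too narrow. The groups also differed in match. Under the GRAS rule, 13 of the 19 GRAS pairs had a score of 2.5 or less, against 1 of the 37 others. Over all small RNAs, 11.7% of pairs with scores of 0 to 1 were detected, and 3.69% of those with a score of 4. Whether the GRAS share is apart from that of equally close matches was not tested. Counted by transcript under the GRAS rule, 2 of 2 GRAS transcripts and 2 of 27 others (7.41%) were detected, beside 5.15% of all transcripts. SCL15 enters this count through 1 raw read, and the undetected NSP2 is among the 27 others. The 2 detected others are the riboflavin kinase entries, which may share their reads. The 5′-type strands had 17 predicted pairs on 16 transcripts, and 0 were detected (interval up to 19.5%). Thus 724 of the 2074 family reads, or 34.9% (32.9 to 37.0%), belonged to strands with a detected pair. Undetected transcripts numbered 25. After NSP2, the lowest scores among them, 3 each, belonged to LECRK91, a lectin receptor kinase, PUB35, a U-box ubiquitin ligase, and the unannotated Sme2.5_02846.1_g00005.1.

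Other genes of the pathway were few in the table, and their counts are read against the 5.38% of all pairs and 5.15% of all transcripts (666 of 12937) that were detected. The GRAS rule found 8 transcripts in the whole table. For the 6 without a miR171 pair (SCL3, SCL18, SCL23, SCL30 and both entries named SCL14), other small RNAs gave 11 pairs. SCL6 had 2 more pairs with small RNAs of other families. All 13 such pairs were undetected (interval up to 24.7%). The symbol SCL30 is also used for splicing factors. The list of other GRAS branches had 5 transcripts with 0 detected: the DELLA type GAI in 2 entries, SHR of root patterning, PAT1 of light signalling, and NSP2. Of 8 meristem partners, 1 was detected: BLH2, a BELL homeodomain protein, with 1 raw read at each position hit by small RNAs without a known family. The stem cell signalling receptors CLV1 and CLV2 and the WUSCHEL relative WOX9 were not detected. Of 5 gibberellin transcripts 0 were detected. Of 3 transcripts for chlorophyll and trichome outputs, SPL9 was detected with 2 raw reads for miR156, and both protochlorophyllide reductase entries were not. Only NSP2 among these 4 lists had a miR171 pair, so they describe other small RNAs, and lists this short do not show a share apart from that of the whole table.

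Set beside 4 other conserved families, miR171 lay within their range in the share of detected pairs and below it in the share of reads on strands with a detected pair. Against 37.5% of pairs for miR171, the share detected was 41.2% (30.6 to 52.4%) for miR166, of homeodomain-leucine zipper genes, and 35.7% (23.4 to 49.6%) for miR160, of auxin response factors. It was 13.7% (10.9 to 16.96%) for miR172, of AP2-like floral genes, and 14.8% (12.8 to 17.1%) for miR396, of growth-regulating factors. These shares count every name that points to a position. Counted by transcript, 4 of 29 were detected for miR171 (13.8%), 9 of 46 for miR166 and 7 of 36 for miR160. For miR172 it was 19 of 321, and for miR396 124 of 798. Strands with a detected pair held 99.3% of the miR166 reads, 98.5% for miR172, 95.3% for miR160 and 88.5% for miR396, each above the 34.9% of miR171. The intervals do not overlap, but they cover at most counting error and the difference was not tested. A strand counts here once any of its pairs is detected, so the share can depend on how many pairs were predicted. Predicted pairs numbered 56 for 20 sequences in miR171, 85 for 19 in miR166 and 56 for 7 in miR160. They numbered 525 for 21 in miR172 and 1085 for 10 in miR396. sly-MIR171a-p5, with 47.6% of the miR171 reads, had 1 predicted pair. miR171 had 1 of its 29 predicted transcripts in category 0 (3.45%), miR166 had 3 of 46 (6.52%) and miR160 had 4 of 36 (11.1%). miR172 had 4 of 321 (1.25%) and miR396 had 6 of 798 (0.752%). The highest position in category 0 was GRF5 with 130 raw reads for miR396, followed by SCL6 with 86, ARF18 with 72 for miR160, AP2 with 48 for miR172 and ATHB-8 with 14 for miR166.

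**Figure D4:**
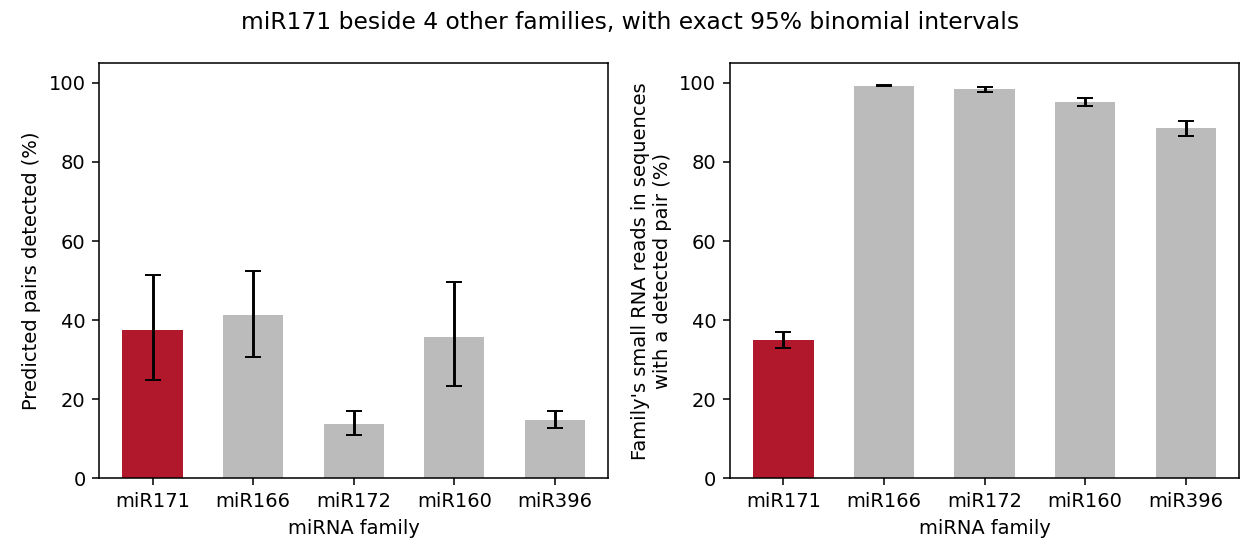
Share of predicted pairs that were detected (left) and share of each family's small RNA reads in sequences with a detected pair (right), for miR171 and 4 other families; bars are percentages and error bars exact 95% binomial intervals. miR171 is at 37.5% on the left, within the range of the others, and at 34.9% on the right, where the others lie from 88.5 to 99.3%.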

How the data were processed

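Per the labels' protocols, a Norgen Biotek kit gave total RNA, an Illumina TruSeq preparation served for small RNAs, and the published method of German and colleagues was used for the degradome. The programs that named small RNAs, predicted pairs and set categories, and the genome build, are not given in the sources used here. The deposited small RNA values are raw read counts per sequence. In the deposited pair table the authors give raw degradome read counts at the cut, an alignment score from 0 to 4, a category from 0 to 4 and a p-value, treated as unadjusted. The deposited normalized reads and the TPB column are signal values by the authors. Normalized reads were below raw reads in 360 of 1010 detected pairs, and were read as raw reads divided over matching places, which the header does not state. TPB was 105.324 per normalized read and was not used further.

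Members and lists were chosen with earlier results of these data known. The named items are every GRAS transcript and every detected transcript of miR171, the 10 sequences with most reads, those with a detected pair, and the 3 closest undetected others. NSP2 stood first among the others, and a tie at the next score led to all 3 tied transcripts being named. Transcript positions are nucleotides along the transcript. With 1 library of each kind, no test between groups was run. Strand typing, overhangs and intervals were computed with Python 3.11.15, pandas 2.3.3, NumPy 2.4.6 and SciPy 1.17.1, drawn with matplotlib 3.10.9, and duplex and interval code was tested on simulated data. Alternatives changed read minima, variant names, categories, the authors' p, scores, shared reads and the unit counted.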

Additional observations from a re-analysis of the deposited data

How the results depend on the processing

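Of 39 alternatives, 21 left a value within its interval, or a count within 1.5 times. The family's share of listed reads, 1.53%, was 2.39% with names free of substituted bases and 1.95% without the rRNA or tRNA like names, which shrink the total. Its 21 nt share was 100% at minima of 10 and of 100 reads, which drop the longer strands. Detected pairs were 37.5% of those predicted. They were 7.14% with only category 0 or 1 and 7.14% at an authors' p of at most 0.05. They were 71.4% at scores of 2.5 or less, and 13.8% (4 of 29) by transcript. GRAS pairs, 78.9% in the report, were detected at 21.1% under each of those stricter category and p limits, which keep the frame a pairs of SCL6, and at 100% (2 of 2) by transcript. Pairs on other transcripts, 16.2% in the report, were detected at 0% under category 0 or 1, under the p limit, at scores of 2.5 or less (1 pair) and with normalized reads equal to raw reads. The 2 detected GRAS transcripts became 1, SCL6, under category 0 to 2, category 0 or 1 and the p limit, since SCL15 has a single read in category 4. Counting NSP2 as a GRAS transcript was added after seeing the data and left this number at 2, with GRAS pairs at 65.2% and other pairs at 18.2%. The share of SCL6 in the degradome reads ranged from 92.5 to 95.7%. No paired analysis was possible because each kind of library was sequenced 1 time. Depth limits the reading of undetected pairs, as 1 read decides a detection.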

Other observations

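The 5′-type strand sly-MIR171b-p5 (95 reads), which has no detected pair, was predicted on 2 transcripts with the symbol OPR3. OPR3 encodes a jasmonate biosynthesis enzyme that Arabidopsis stamens need for filament growth and pollen release. The transcripts, named here after their values were seen, are Sme2.5_06836.1_g00001.1 (nucleotides 371 to 391) and Sme2.5_28320.1_g00001.1 (nucleotides 50 to 70). Each had an alignment score of 3.5. The strand had 5 predicted pairs, and the others were on At1g59620 and N, also at 3.5, and on CBSCBSPB3 at 4.

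The most abundant strand, sly-MIR171a-p5 with 987 reads, had 1 predicted pair, with an alignment score of 4 on the unannotated Sme2.5_03580.1_g00004.1, and it was not detected. sly-miR171c (205 reads) likewise had 1 undetected pair, on ANT (Sme2.5_01136.1_g00003.1), annotated as a mitochondrial adenine nucleotide carrier. Both aly-miR170-5p_R+3 (8 reads) and ptc-MIR171b-p5 (1 read) had no predicted pair listed.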
